A study of Mus musculus with 2 samples.

Results

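Complement is a protease cascade of plasma and tissue fluid. Its classical route runs from the recognition protein C1q through the paired proteases C1r and C1s, which cut C4 and C2, and the fragments form an enzyme that cuts C3. An alternative route builds a second C3-cutting enzyme from C3 itself and factor B. Both routes lead to C5 and to the pore of the terminal components, and host cells carry membrane proteins such as CD55 and CD59 that stop the cascade on their own surface. Liver makes most plasma complement, and macrophages, fibroblasts and epithelial cells make components locally.

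The genes described here are 8 components and regulators, C1ra, C1s1, C4b, C2, C3, Cfb, Cd55 and Cd59a, chosen by gene symbol from a table of 55536 genes, in which all 8 were found. RNA was sequenced from 2 mammary tumor libraries of MMTV-PyVT mice, 1 after treatment with C3G (cyanidin-3-glucoside, a plant anthocyanin) and 1 after treatment with the solvent dimethyl sulfoxide (DMSO). Both carried the transgene, in which the mouse mammary tumor virus promoter drives the polyoma middle T oncogene mainly in mammary epithelium. Dosing started at ductal hyperplasia and tumors were taken at a set tumor burden. Dose, age, sex and whether tumors were pooled are not given in the sources used here. The series asks how C3G affects these tumors. The C3G library held 16081110 gene-assigned reads, and the DMSO library 12192275.

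With 1 library per group there is no spread between animals and no test. An effect of C3G and a difference between individual mice cannot be told apart. Values are in TPM, a transcript level scaled to gene length and library total. Ratios are plain ratios of TPM, C3G over DMSO, with an exact 95% interval in parentheses that covers counting error only. Calls by size needed at least 5 TPM in either library and a value of log2((C3G TPM + 1)/(DMSO TPM + 1)) of at least 1 in either direction. The median log2 ratio of the 17468 genes with a mean of at least 1 TPM was 0.10, so a typical gene was slightly higher in the C3G tumor. In whole tumor tissue, fewer cells of a type and less RNA per cell cannot be told apart. The mammary epithelial keratin and adhesion genes were abundant in both libraries, with Krt8 at 1420 TPM in the C3G tumor and 1890 TPM in the DMSO tumor, Krt18 at 1769 TPM with C3G and 2824 TPM with DMSO, and Epcam at 1399 TPM with C3G and 1484 TPM with DMSO.

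Some of these genes have near-identical neighbours, and the stretches below show how far reads could separate them. Each pair is the 60-base ungapped part of the longest open reading frame with the most differences, from GENCODE transcripts, and capitals mark the differing bases. C4b and its copy C4a lie on chromosome 17, and Cd59a and Cd59b on chromosome 2.

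C4b: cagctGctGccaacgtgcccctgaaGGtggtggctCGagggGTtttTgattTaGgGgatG

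C4a: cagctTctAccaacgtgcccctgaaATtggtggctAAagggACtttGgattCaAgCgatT

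Cd59a: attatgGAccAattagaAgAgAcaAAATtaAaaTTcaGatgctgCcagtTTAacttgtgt

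Cd59b: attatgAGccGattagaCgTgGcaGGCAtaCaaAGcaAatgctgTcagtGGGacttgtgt

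The C4 stretches differ at 13 of 60 bases and the Cd59 stretches at 18 of 60. Over the bases that aligned without gaps, C4b and C4a were 96.2% identical and Cd59a and Cd59b 90.1%. C1ra and C1rb reached 98.1%, C1s1 and C1s2 96.2% and Cd55 and Cd55b 91.5%. Those aligned bases were only 734 of the 1806 in the Cd59a transcript and 1227 of the 3133 in the Cd55 transcript. The share of 50-base windows also present in transcripts of another gene was 73.0% for Cfb, 50.8% for C1ra, 41.5% for C2, 35.1% for C1s1, 34.6% for C4b, 9.12% for Cd55 and 3.87% for Cd59a. For Cfb (73.0%) and most of C2 (38.7%), the windows were shared with Gm20547. That is a read-through gene annotated over the same genomic bases, described below, and not a similar copy. C3 had no shared window among 5179, so its reads are the least ambiguous of the 8. How reads that match several genes were treated is not given in the sources used here, so the levels of Cfb, C1ra, C2, C1s1 and C4b are uncertain in that respect.

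The 8 genes had no common direction. C2 was the only one of them called by size, and it was lower in the C3G tumor. C4b, C3 and C1s1 were modestly higher in the C3G tumor, and C1ra, Cd55 and Cd59a modestly lower. Cfb was barely detected in either library. Of the 7 genes that reached 5 TPM in either library, none was called higher, where 3.10% of 12780 genes were, and 1 was called lower, where 4.30% were. Their median log2 ratio was -0.19, beside 0.10 for all genes, but it changed with the filter on low values and was -0.00064 with all 8 genes. The counting interval lay above 1 for 2 of the 7, against 42.2% of the 12780 genes, and below 1 for 4 of the 7, against 20.7%.

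**Figure D1:**
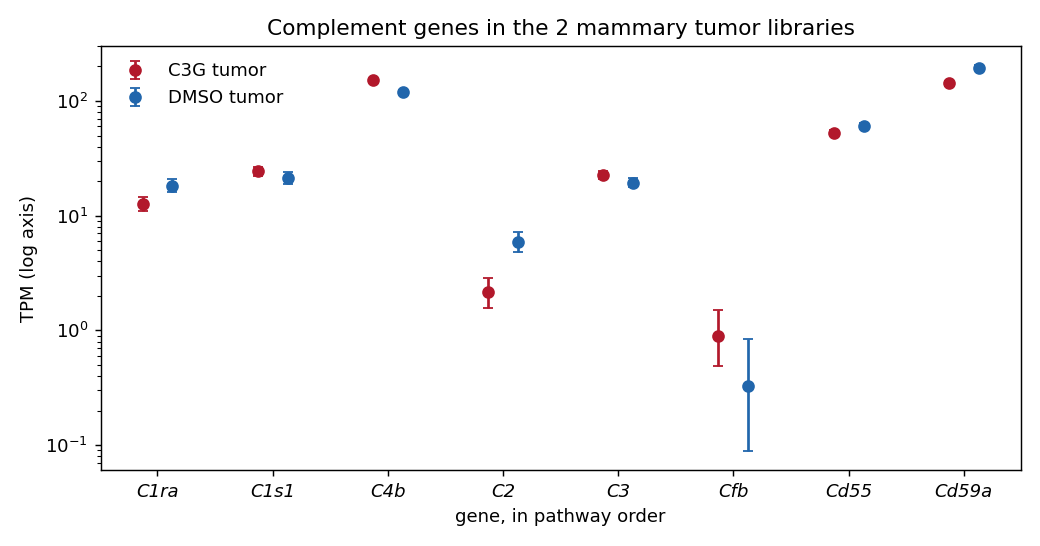
TPM of the 8 complement genes on a log axis, with the C3G tumor in red on the left and the DMSO tumor in blue on the right of each gene. Points are single libraries and bars are exact 95% Poisson intervals of the counted reads. C4b and Cd59a are the most abundant in both tumors, and the intervals of C2 do not overlap, at 2.16 TPM with C3G and 5.96 TPM with DMSO.

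C1ra and C1s1 encode the proteases that sit on C1q, where each protein is present in equal number. C1ra (ENSMUSG00000055172, build mm10, plus strand of chromosome 6, 124512405 to 124523443) stood at 12.7 TPM in the C3G tumor and 18.3 TPM in the DMSO tumor, from 208 reads with C3G and 236 with DMSO. The ratio was 0.695 (0.574 to 0.841). C1s1 (ENSMUSG00000038521, chromosome 6, 124530345 to 124542359), which lies beside it on the opposite strand, stood at 24.4 TPM in the C3G tumor and 21.3 TPM in the DMSO tumor. Its ratio was 1.14, and the interval of 0.982 to 1.33 held 1. The genes thus lay on opposite sides of 1, and the level of C1ra per C1s1 was 0.521 in the C3G tumor and 0.857 in the DMSO tumor. That quotient does not depend on how the libraries are scaled, and its change was 0.608 (0.475 to 0.778). The pair was singled out after its values were seen.

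The copies of these proteases were nearly silent as counted. C1rb had 0 reads in both libraries, under a floor of 3 reads that corresponds to 0.225 TPM in the C3G library and 0.285 TPM in the DMSO library. C1s2 had 10 reads with C3G and 17 with DMSO. An antisense gene, Gm16567, covers 18.4% of the exon bases of C1s1 and was listed at 0 reads in both libraries. Reads from the shared bases may have gone uncounted for both genes, so that 0 need not mean silence. Scaled to its unshared bases alone, C1s1 stood at 29.9 TPM in the C3G tumor and 26.1 TPM in the DMSO tumor. On that basis C1ra per C1s1 would be lower in both libraries, with the same change between them.

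C1q itself is made by macrophages. Its chain genes were much more abundant than C1ra and C1s1 and slightly lower in the C3G tumor. C1qa stood at 408 TPM in the C3G tumor and 512 TPM in the DMSO tumor, C1qb at 374 TPM with C3G and 427 TPM with DMSO, and C1qc at 182 TPM with C3G and 218 TPM with DMSO. The ratio was 0.796 (0.751 to 0.843) for C1qa, 0.877 (0.825 to 0.932) for C1qb and 0.833 (0.781 to 0.889) for C1qc. None was called by size. The 12 macrophage markers had a median log2 ratio of -0.05, with 6 above and 6 below 0, and their summed level was 1045 TPM in the C3G tumor and 1048 TPM in the DMSO tumor.

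C4b encodes C4, the substrate of C1s, and was the most abundant of the 6 cascade components. It lies on chromosome 17 (ENSMUSG00000073418, 34728380 to 34743882), in the class III part of the major histocompatibility complex. It stood at 152 TPM in the C3G tumor and 121 TPM in the DMSO tumor, from 4760 reads with C3G and 2979 with DMSO, with a ratio of 1.26 (1.20 to 1.32). On the log2 scale the difference was 0.33, or 0.21 once ratios were centred on genes with a mean of at least 10 TPM and 0.16 with a trend over gene length removed. By level, it was gene number 839 in the C3G library and 1102 in the DMSO library. The copy C4a, annotated as a processed transcript, stood at 0.909 TPM in the C3G tumor and 1.23 TPM in the DMSO tumor. C4a was thus at 0.598% of the C4b level with C3G and at 1.02% with DMSO.

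C2, the serine protease partner of C4, had the lowest log2 ratio of the 60 complement genes listed. It lies on chromosome 17 (ENSMUSG00000024371, 34862604 to 34898265). It stood at 2.16 TPM in the C3G tumor and 5.96 TPM in the DMSO tumor, a ratio of 0.363 (0.2502 to 0.520). These levels rest on 46 reads with C3G and 100 with DMSO. The log2 ratio of -1.14 was just past the size threshold, and with a pseudocount of 5 in place of 1 it was -0.61 and no longer called. By TPM as listed, C4b was 70.4 times as abundant as C2 in the C3G tumor and 20.3 times in the DMSO tumor. Only 53.1% of the exon bases of C2 are covered by no other gene, against 100% for C4b. Scaled to those bases, C2 stood at 4.07 TPM with C3G and 11.2 TPM with DMSO, and both factors would be smaller. The change in C2 per C4b was 0.288 (0.198 to 0.414).

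Cfb encodes factor B, the counterpart of C2 in the alternative route. It lies directly downstream of C2 (ENSMUSG00000090231, chromosome 17, 34856374 to 34862518). It stood at 0.902 TPM in the C3G tumor and 0.327 TPM in the DMSO tumor, from 14 reads with C3G and 4 with DMSO. A floor of 3 reads corresponds to 0.193 TPM with C3G and 0.245 TPM with DMSO for this gene, so the DMSO value is close to it. The ratio was 2.76, with an interval of 0.867 to 11.5 that held 1. No difference in Cfb was detectable at this depth.

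The counts of C2 and Cfb come from only part of each gene. GENCODE annotates a read-through gene, Gm20547, whose exons run through both, on the same strand. It covers 79.5% of the exon bases of Cfb and 42.8% of those of C2, and Zbtb12, on the other strand, covers a further 4.16% of C2. Gm20547 was listed at 0 reads in both libraries. Across the table, 1247 genes had no exon base of their own on either strand, and 10 of them (0.802%) had any read. Of these, 184 were protein-coding, as Gm20547 is, and 8 of the 184 (4.35%) had any read. Of the 1247, 482 would have had exon bases of their own but for genes on the other strand, and 0 of these 482 had a read. For protein-coding genes with over 80% of exon bases of their own the share with reads was 76.1%. In these libraries, genes without exon bases of their own thus rarely had reads, and the TPM of C2 and Cfb divides by a length that includes shared bases. Scaled to the unshared bases alone, 579 for Cfb and 2055 for C2, Cfb stood at 4.40 TPM in the C3G tumor and 1.59 TPM in the DMSO tumor. C2 stood at 4.07 TPM in the C3G tumor and 11.2 TPM in the DMSO tumor on that basis. The ratios are the same on either basis.

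**Figure D2:**
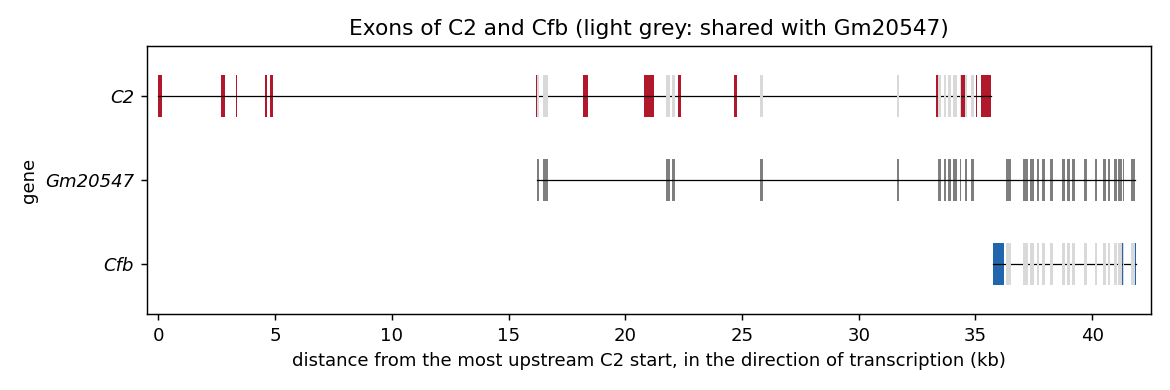
Exons of C2, Gm20547 and Cfb against the distance in kb from the most upstream C2 start, all transcribed from left to right. Colored blocks of C2 and Cfb are exon bases outside Gm20547, and light grey blocks are shared with it. Most Cfb exons are light grey, which matches the 79.5% shared, and the colored part of Cfb is mainly its first exon.

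C3 is the hub on which every route converges. It lies on chromosome 17 (ENSMUSG00000024164, 57203970 to 57228136), away from the C4b, C2 and Cfb cluster. It stood at 22.6 TPM in the C3G tumor and 19.4 TPM in the DMSO tumor, from 640 reads with C3G and 433 with DMSO. The ratio was 1.17 (1.03 to 1.32), a log2 difference of 0.21 that is 0.09 after centring. C3 per C4b was 0.149 in the C3G tumor and 0.161 in the DMSO tumor, a change of 0.925 (0.811 to 1.06) whose interval held 1. C3 and C4b, the substrates that become bound to surfaces, thus showed no difference in proportion that was detectable at this depth.

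Cd55 and Cd59a are lipid-anchored surface regulators. Cd55, decay-accelerating factor, takes apart the C3-cutting enzymes (ENSMUSG00000026399, chromosome 1, 130439027 to 130462744). It stood at 53.1 TPM in the C3G tumor and 60.5 TPM in the DMSO tumor, with a ratio of 0.876 (0.812 to 0.946). Cd59a blocks assembly of the terminal pore (ENSMUSG00000032679, chromosome 2, 104095801 to 104115354). It stood at 142 TPM in the C3G tumor and 195 TPM in the DMSO tumor, from 1417 reads with C3G and 1531 with DMSO, with a ratio of 0.730 (0.679 to 0.785). Both were lower in the C3G tumor and neither was called by size. The log2 ratio of Cd55 was -0.19, and -0.34 with the length trend removed. Cd55 per Cd59a was 0.373 with C3G and 0.311 with DMSO, a change of 1.20 (1.08 to 1.33).

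Their copies were far less abundant. Cd59b stood at 7.70 TPM in the C3G tumor and 4.79 TPM in the DMSO tumor, a ratio of 1.61 whose interval of 0.997 to 2.65 held 1. Cd59b per Cd59a was 5.41% with C3G and 2.46% with DMSO. Cd55b had 2 reads in each library.

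**Figure D3:**
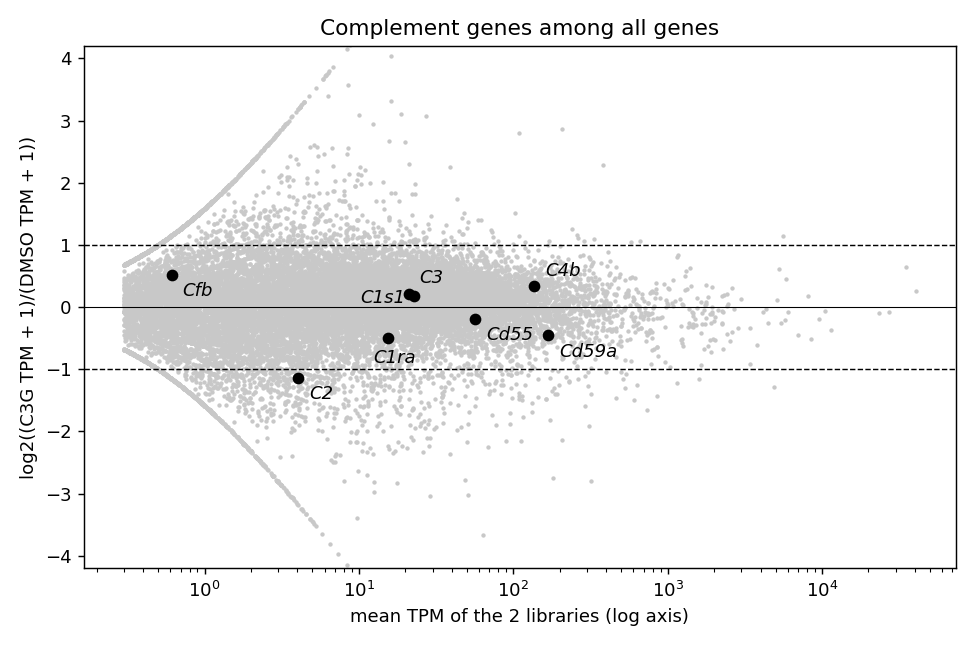
Log2 ratio of C3G over DMSO, with 1 TPM added to each, against the mean TPM of the 2 libraries on a log axis. Grey points are all genes with a mean of at least 0.3 TPM, the vertical axis is cut at 4.2 either way, and dashed lines mark the size threshold. C2 at -1.14 is the only black point outside the dashed lines, and the other 7 lie inside the grey cloud between -0.49 and 0.52.

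The rest of the cascade was taken from lists that together hold 60 genes, the 8 included. Of these, 35 had a mean of at least 1 TPM, 14 above and 21 below 0, with a median log2 ratio of -0.16. Over all 17468 genes at that mean, 10288 lay above and 7180 below 0, with a median of 0.10. Of the 29 complement genes that reached 5 TPM, 1 was called higher and 1 lower, where 3.10% and 4.30% of 12780 genes were. The gene called higher was Cfd, adipsin or factor D, the protease that cuts factor B. It stood at 637 TPM in the C3G tumor and 130 TPM in the DMSO tumor, a ratio of 4.90 (4.46 to 5.39). Fat cells are its main source, and all 10 adipocyte markers were above 0 in the same comparison, with a median log2 ratio of 1.66. Of the 8 adipocyte markers at 5 TPM, 6 were called higher. The adipocyte summed level was 511 TPM with C3G and 186 TPM with DMSO. The part of fat cell content in the Cfd difference was not tested. Properdin (Cfp), which stabilises the alternative enzyme, stood at 33.4 TPM in the C3G tumor and 37.5 TPM in the DMSO tumor.

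Among recognition and initiation genes, 3 of 10 measured genes were above 0 and none of 8 at 5 TPM was called. The pentraxin Ptx3, which binds C1q, stood at 70.6 TPM in the C3G tumor and 120 TPM in the DMSO tumor, 1.70-fold lower (1.57 to 1.84). C1rl, a C1r-like protease gene, stood at 12.3 TPM with C3G and 14.3 TPM with DMSO, and the collectin gene Colec12 at 6.74 TPM with C3G and 5.87 TPM with DMSO. Of the lectin route, the ficolin gene Fcna stood at 3.18 TPM with C3G and 1.18 TPM with DMSO, from 24 reads with C3G and 7 with DMSO, a ratio of 2.71 (1.13 to 7.43). Mbl1, Mbl2 and Fcnb had 0 reads in both libraries, Masp2 had 0 with C3G and 1 with DMSO, and Masp1 stood at 0.629 TPM with C3G and 0.774 TPM with DMSO.

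All 4 measured terminal component genes were below 0, with a median log2 ratio of -0.25, and none was called. C9, the pore-forming component, stood at 4.91 TPM in the C3G tumor and 8.30 TPM in the DMSO tumor, a ratio of 0.592 (0.427 to 0.817). Hc, which encodes C5, stood at 4.24 TPM with C3G and 5.04 TPM with DMSO, with an interval of 0.661 to 1.07 that held 1. C8a and C8b had 0 reads in both libraries, and C7 had 1 read in each. C6 had 26 reads with C3G and 28 with DMSO, and C8g had 30 with C3G and 29 with DMSO. Their ratio intervals, 0.413 to 1.30 for C6 and 0.473 to 1.41 for C8g, also held 1. Hc had 146 reads with C3G and 137 with DMSO, and C9 69 with C3G and 92 with DMSO. Of the 10 hepatocyte markers, 5 were at or under 3 reads in both libraries and none reached 5 TPM.

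Of the soluble regulators, clusterin (Clu), which binds the terminal complex, stood at 178 TPM in the C3G tumor and 293 TPM in the DMSO tumor, 1.65-fold lower (1.58 to 1.73). The C1 inhibitor gene Serping1 stood at 43.9 TPM with C3G and 48.9 TPM with DMSO, with an interval of 0.794 to 1.02 that held 1. Neither was called by size. Of the other membrane regulators, the rodent regulator Crry (Cr1l) stood at 21.2 TPM in the C3G tumor and 18.5 TPM in the DMSO tumor. Susd4 stood at 6.37 TPM with C3G and 3.05 TPM with DMSO, a ratio of 2.09 (1.503 to 2.94), short of the threshold on the log2 scale at 0.86. Regulator genes thus lay on both sides of 1.

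Among the receptors, 3 of 6 measured genes were above 0, the median log2 ratio was -0.02 and none was called. The anaphylatoxin receptor genes C3ar1, C5ar1 and C5ar2 stood at 16.1, 6.09 and 17.9 TPM in the C3G tumor, against 14.4, 7.90 and 12.9 TPM in the DMSO tumor. Of these, only the interval of C5ar2, at 1.39 (1.16 to 1.66), lay off 1. The integrin genes Itgam, Itgax and Itgb2, which form the leukocyte receptors for C3 fragments, stood at 10.8, 16.1 and 19.1 TPM in the C3G tumor, against 10.7, 17.5 and 19.95 TPM in the DMSO tumor. Only 31.3% of the exon bases of Itgam are unshared, and scaled to those it stood at 34.3 TPM with C3G and 34.1 TPM with DMSO. Vsig4, a macrophage receptor for C3 fragments, had 13 reads with C3G and 0 with DMSO, and so was listed at 1.59 TPM with C3G and at 0 with DMSO.

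**Figure D4:**
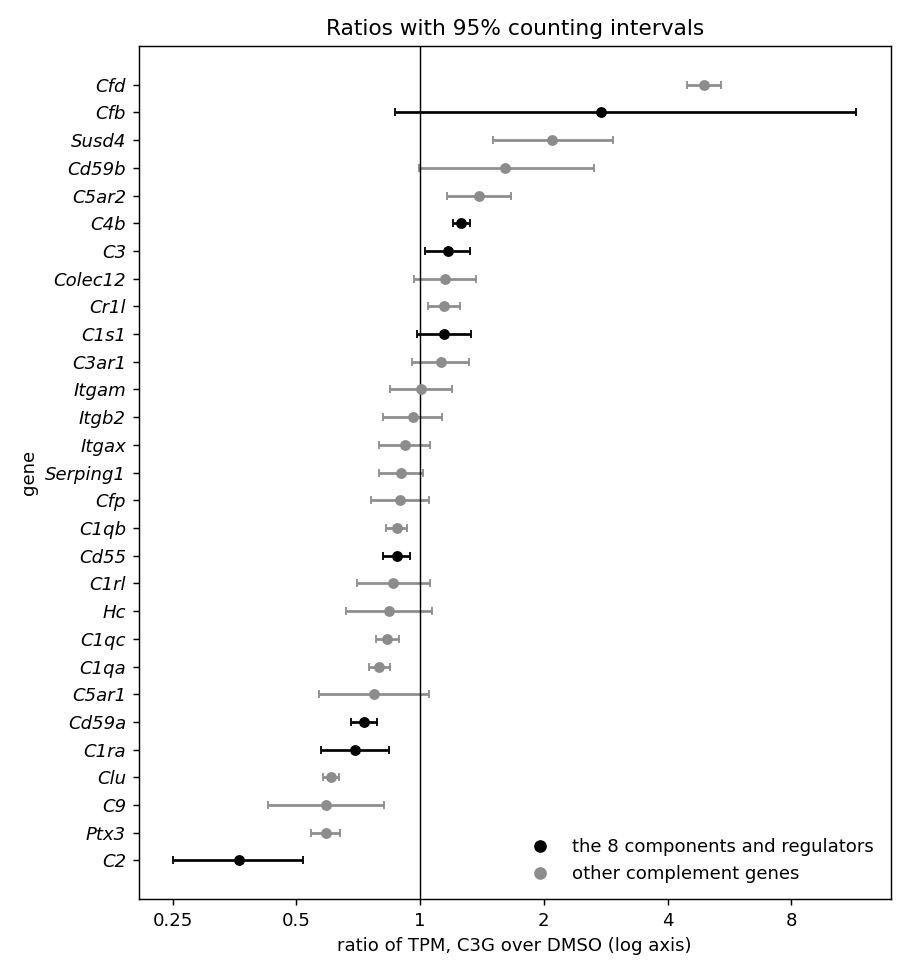
Ratio of TPM, C3G over DMSO, on a log axis for the 8 genes in black and 21 other complement genes that reached 5 TPM in grey. Bars are 95% counting intervals and the vertical line marks 1. Cfd at 4.90 and C2 at 0.363 stand at the ends, and the interval of Cfb is the widest.

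Cell type markers differed between the same libraries. Over all genes, 3.10% of 12780 were called higher and 4.30% lower. Of the 17468 with a mean of at least 1 TPM, 10288 lay above 0. Endothelial markers were higher in the C3G tumor, with 10 of 10 above 0, 5 of 9 at 5 TPM called and a median log2 ratio of 1.06. T cell markers were lower, with 11 of 11 below 0, 3 of 5 at 5 TPM called and a median of -0.98. B cell markers were likewise lower, with 4 of 4 below 0, 2 of 3 at 5 TPM called and a median of -0.85. Myoepithelial markers had a median of -0.84 with 8 of 10 below 0 and 5 called lower, Acta2, Myh11, Cnn1, Tagln and Mylk. The 2 above 0 were Krt5, at 0.41, and Trp63, at 0.29, so the list did not move as 1. Luminal markers had a median of -0.28, with 10 of 12 below 0 and 3 called lower. Fibroblasts, a local source of C1r, C1s, C3 and C4, showed a median of -0.03 over 12 markers, none called, with summed levels of 1545 TPM with C3G and 1812 TPM with DMSO. Only 3 of 8 neutrophil markers reached a mean of 1 TPM, with 1 above and 2 below 0 and a median of -0.16. Their summed level over all 8 was 57.7 TPM with C3G and 36.2 TPM with DMSO, most of it S100a8, at 50.3 TPM with C3G and 28.9 TPM with DMSO.

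Interferon-gamma induces several complement genes, C2, Cfb and C4 among them, and its other targets were lower in the C3G tumor. All 17 listed targets were below 0, with a median log2 ratio of -0.71. Of the 16 at 5 TPM, 4 were called lower, Gbp2, Cxcl9, Psmb8 and B2m, where 4.30% of 12780 genes were. C2 lay with that list in direction, at -1.14, while C4b lay above 0, at 0.33. The value of Cfb, 0.52, rests on 14 reads with C3G and 4 with DMSO, with a ratio interval that held 1. The part of any of these cell types or of interferon in the complement differences was not tested.

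**Figure D5:**
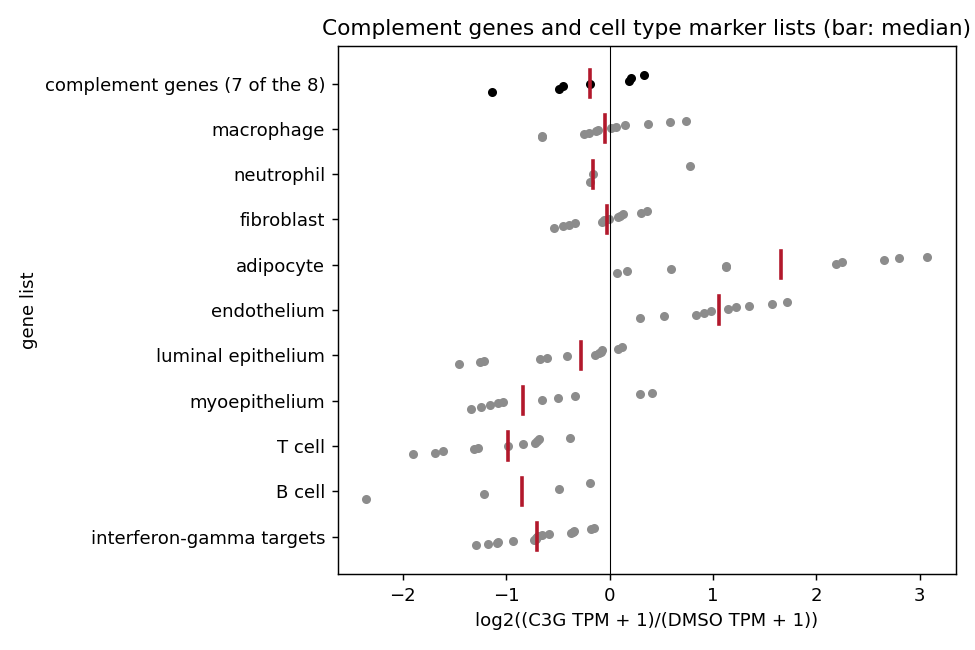
Log2 ratio of C3G over DMSO, with 1 TPM added to each, for genes with a mean of at least 1 TPM in each list, 1 point per gene, with a red bar at the list's median. The top row holds 7 of the 8 complement genes, whose median is -0.19. Adipocyte and endothelial medians lie to the right, at 1.66 and 1.06, and lymphocyte and interferon-gamma medians to the left.

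Promoter sequences came from a table made from RefSeq (build GRCm38.p6), in which 6 promoters were matched to 5 of the 8 genes, C1ra, C1s1, C3, Cd55 and Cd59a. They span 250 bases before to 50 after a start. Those of C3, C1s1 and Cd59a are printed 5′ to 3′ because a searched motif was found upstream of the start, with the matches in capitals.

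C3 (chr17:57228087-57228386, minus strand): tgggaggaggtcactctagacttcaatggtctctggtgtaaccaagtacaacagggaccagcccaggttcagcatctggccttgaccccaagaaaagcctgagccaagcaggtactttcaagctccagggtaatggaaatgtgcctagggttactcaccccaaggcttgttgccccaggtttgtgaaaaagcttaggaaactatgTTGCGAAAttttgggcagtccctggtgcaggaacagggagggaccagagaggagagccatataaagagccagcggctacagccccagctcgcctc

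C1s1 (chr6:124542310-124542609, minus strand): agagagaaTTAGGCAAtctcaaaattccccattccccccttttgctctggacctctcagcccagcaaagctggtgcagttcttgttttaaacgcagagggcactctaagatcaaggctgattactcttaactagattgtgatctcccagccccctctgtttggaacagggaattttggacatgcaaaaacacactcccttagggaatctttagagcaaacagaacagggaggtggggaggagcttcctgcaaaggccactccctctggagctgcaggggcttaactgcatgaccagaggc

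Cd59a (chr2:104095551-104095850, plus strand): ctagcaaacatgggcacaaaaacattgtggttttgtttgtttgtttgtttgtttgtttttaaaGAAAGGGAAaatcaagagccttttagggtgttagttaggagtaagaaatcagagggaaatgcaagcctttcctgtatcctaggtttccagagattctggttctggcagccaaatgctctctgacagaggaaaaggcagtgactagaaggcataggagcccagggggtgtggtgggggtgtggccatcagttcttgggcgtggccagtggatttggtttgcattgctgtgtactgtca

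Motifs were searched on both strands. The C/EBP motif TTGCNNAA was found in 3 of the 5 genes and in 10.8% of all 32851 promoters. It lay 45 bases before the start in C3, at position -242 from the start in C1s1, and after the start in C1ra. The other matched promoter of C1s1 held none of the motifs, so the shares of genes and of promoters are unlike units. The GAS motif TTCNNNGAA was found in C1ra, after the start, and in 8.30% of all promoters. The ISRE core GAAANNGAA was found in Cd59a and in 8.56% of all promoters. The NF-kB cores GGGANTTTC and GGGANTTCC were found in none of the 5, against 2.75% of all. None of these matches overlapped another. A match is a description of letters and not evidence of binding. The genes with a C/EBP match lay on both sides of 1, C1ra at 0.695 and C3 at 1.17. Those with the match before the start, C1s1 and C3, lay above 1, at 1.14 and 1.17, and the interval of C1s1 held 1. Of all 17468 genes with a mean of at least 1 TPM, 10288 had a log2 ratio above 0. A link between motif and level was not tested.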

How the data were processed

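The series holds RNA-seq of mammary tumors, 2 libraries in all, 1 per group. Per the labels' protocols, extraction used an RNeasy Plus kit and library preparation a TruSeq RNA kit, v2; that kit does not mark the strand. Per the submitters' processing notes, reads were handled with Trimmomatic 0.38, featureCounts 2.0.0, FastQC and MultiQC on build mm10. The aligner is not given in the sources used here. The authors deposited TPM values for 55536 Ensembl genes, and all identifiers matched GENCODE mouse release M21, which gave symbols, positions and exon lengths.

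Multiplying TPM by exon length gave, in each library, steps of equal size, and 100% of values above 0 lay on such a step within 0.01 of it. Each step was taken as 1 read or read pair. Intervals are exact conditional (ratios) or Poisson (levels) at 95% and cover counting error only, because without molecular identifiers several reads can stem from 1 molecule. Quotients between genes have conditional odds ratio intervals. No count test or p-value was computed. A list's median used genes with a mean of at least 1 TPM. The code was tested on simulated data.

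The 8 genes, the gene lists and the thresholds were chosen with earlier results of these data known. All 8 genes are named, as is each other listed complement gene with a higher TPM of at least 5, and other genes only among the 3 of a list with the largest log2 ratio in size at 5 TPM or more, where a result turns on them or, chosen after their values were seen, Krt8, Krt18, Epcam, Il6, Ifng, Slc44a4 and the complement genes below 5 TPM. Values of 2 listed genes that this rule would name are not reported here. The quotients between genes were also chosen after the values were seen. Transcript identity (Biopython 1.88, global alignment of the longest transcripts) was used in place of protein identity. Alternatives were pseudocounts of 0.1 and 5, no filter and a stricter one (higher TPM of 20, mean TPM of 5), centring, TPM without mitochondrial and the 50 most abundant genes, a length trend removed by lowess (statsmodels 0.14.6), a promoter window without the last 50 bases and, added after the data were seen, unshared exon bases. Other tools were Python 3.11.15, numpy 2.4.6, pandas 2.3.3 and scipy 1.17.1.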

Additional observations from a re-analysis of the deposited data

How the results depend on the processing

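Of the alternatives, only centring, TPM without the most abundant genes and the length trend could turn the sign of a single gene's log2 ratio, and none of the 8 turned. Over all settings the log2 ratio ran from -1.42 to -0.61 for C2, 0.05 to 0.22 for C3 and 0.15 to 1.23 for Cfb. The call of C2 depended on low values. With a pseudocount of 5, 0 of the 8 genes and 0 listed complement genes were lower by size, and with the stricter filter, which removes C2, the counts were also 0 and 0. The number of listed complement genes called higher was 2 with a pseudocount of 0.1, where Susd4 joined Cfd, and 2 with no filter, where Vsig4 did. The median log2 ratio of all 8 genes was -0.00064 with no filter. It was also -0.00064 with the stricter filter, which leaves out C2 and Cfb. Over the 7 genes with a mean of at least 1 TPM it was -0.31 when centred (a shift of 0.12) and -0.34 with the length trend removed. Without the last 50 bases of each promoter, 0 of the 5 genes held the GAS motif and 2, C1s1 and C3, held the C/EBP motif. Over all genes the calls were 179 higher and 309 lower with a pseudocount of 5, 1086 and 1218 with no filter, and 109 and 241 with the stricter filter, against 396 higher and 550 lower in the comparison as reported. The cause of these shifts was not tested beyond the genes that each filter removes. No paired analysis was possible because each group has 1 library. Depth limits Cfb, with 4 reads in the DMSO library, and C2, with 46 in the C3G library, and with 1 tumor per group no alternative replaces replicates.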

Other observations

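The genes that flank C4b, C2 and Cfb on chromosome 17 lay on both sides of 0. Of 14 genes listed in that stretch, these 3 included, 13 had a mean of at least 1 TPM and a median of -0.04, and C2 was the only one of them called by size. Slc44a4, a transporter gene of the stretch below 5 TPM, stood at 1.52 TPM in the C3G tumor and 3.04 TPM in the DMSO tumor, a ratio of 0.5004 (0.294 to 0.838). Zbtb12, which overlaps the most upstream C2 exon on the other strand, stood at 17.9 TPM in the C3G tumor and 13.4 TPM in the DMSO tumor. Around C1ra and C1s1 on chromosome 6, 9 measured genes, with C1ra, C1s1, C1rl and C1s2 among them, had a median of 0.04. None of the 8 at 5 TPM was called. Lpcat3, a phospholipid-remodelling enzyme gene, stood at 42.2 TPM in the C3G tumor and 33.1 TPM in the DMSO tumor.

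Cytokines and factors known to induce complement genes went both ways, with 6 of 12 measured genes above 0 and a median log2 ratio of -0.03. Il1b was called higher, at 15.5 TPM in the C3G tumor and 6.29 TPM in the DMSO tumor, a ratio of 2.46 (1.79 to 3.43). Il6 stood at 4.12 TPM in the C3G tumor and 0.76 TPM in the DMSO tumor, from 55 reads with C3G and 8 with DMSO, under the 5 TPM needed for a call. Tnf stood at 7.44 TPM in the C3G tumor and 10.6 TPM in the DMSO tumor. Ifng had 0 reads with C3G and 6 with DMSO.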
